A study of Mus musculus with 8 samples.

Results

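The genes described here encode ligands, receptors and extracellular regulators of the TGF-beta and activin branch of the TGF-beta superfamily. They were chosen by name: every probe that is not a control and that carries the gene name Tgfb1, Tgfb2, Tgfb3, Tgfbr1, Tgfbr2, Tgfbr3, Ltbp1, Ltbp2, Inhba or Fst. This gave 10 genes out of 36095 genes and loci named on the array, measured by 13 probes on 31 spots. All 10 entered the test, which covered 20840 genes, and 12 of their 13 probes were well above background on all 8 arrays. RNA came from Csk-/- embryonic fibroblasts of the mouse (Csk is the kinase that holds Src and its relatives inactive by phosphorylating their tail) that were transfected with pBKT2-c-Src, a vector from which doxycycline switches c-Src on. The 4 groups were 0 h (uninduced), 6 h, 24 h and 72 h of c-Src expression under 1 µg/ml doxycycline, with 2 arrays each. All groups, the 0 h group included, therefore lack Csk and carry the vector, and no group with intact Csk was analysed here. The labels state that samples were run in duplicate and do not name separate cultures, so the p-values below reflect only how far these arrays differ from each other, and that spread may be technical.

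TGF-beta is secreted in a latent form, in which the mature dimer stays bound to its propeptide and, through it, to a latent TGF-beta binding protein that anchors the complex in the matrix. Once released, it binds the type II receptor, which recruits and phosphorylates the type I receptor, and this phosphorylates Smad2 and Smad3, which enter the nucleus with Smad4. Activins signal to the same Smads through their own receptors and are neutralised outside the cell by follistatin. In fibroblasts the pathway is known for its effects on matrix production and on the contractile, myofibroblast-like state.

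A level below is the processed signal of a probe divided by the 75th percentile of its array, so a level of 1 is the signal at that percentile. Levels of different probes depend on the probe and are not compared with each other. Differences are on the log2 scale with their standard error, from the limma fit over all 8 arrays, and adjusted p-values are Benjamini-Hochberg values over all 20840 genes, with a threshold of 0.05. Because each time has 2 arrays and all times share 1 estimate of the spread, a gene has the same standard error in every comparison. These are bulk RNA samples, so fewer cells of a kind and less RNA per cell cannot be told apart. Doxycycline, time in culture and the row on the slide, which followed the time, cannot be told apart from c-Src itself.

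The Src probe rose from levels of 0.393 and 0.437 at 0 h to 11 and 11.3 at 6 h, 9.81 and 9.92 at 24 h, and 8.15 and 8.12 at 72 h, and the Csk probe was well above background on none of the arrays. Replicate arrays correlated across genes with r of 0.9964 to 0.9975. Of 12 fibroblast markers, 9 were well above background on all arrays and Thy1 on none, and their summed level was 664 to 738 at 0 h, 728 to 737 at 6 h, 599 to 624 at 24 h and 558 to 577 at 72 h. Of the 10 fibroblast markers tested, 2 were called higher and 8 lower at 72 h against 0 h. Among all genes tested, 10.3%, 21.4% and 27.5% were called higher at 6 h, 24 h and 72 h, and 7.24%, 20.1% and 24.6% lower. The defining epithelial markers Epcam, Cdh1, Cldn4 and Ocln, the macrophage markers Ptprc, Adgre1, Lyz2 and Tyrobp, and the endothelial markers Cdh5, Tie1 and Emcn were well above background on no array, whereas Csf1r and Itgam (macrophage) and Pecam1 and Kdr (endothelial) were so on all arrays. The 7 macrophage markers summed to 16.6 to 17.8 at 0 h and 17 to 17.8 at 72 h, with 2 of the 3 tested called higher at each time, and the 6 endothelial markers to 2.33 to 2.4 and 2.26 to 2.28. Of the skeletal muscle markers only Des, and of the adipocyte markers only Fabp4, was well above background on all arrays and the others on none. The muscle sum was 0.581 to 0.582 at 0 h and 0.613 to 0.623 at 72 h, and the adipocyte sum 0.476 to 0.502 and 1.64 to 1.77, with Fabp4 higher by 1.85 at 24 h and 1.91 at 72 h. The 7 epithelial markers summed to 2.94 to 3.68 at 0 h and 4.91 to 5.08 at 72 h, of which only Krt8, Krt18 and Krt19 were well above background on all arrays. The part of these shifts in the results below was not tested.

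Probe sequences from the scanner files are shown first for TGF-beta 1 and TGF-beta 2, to show how far the probes of these related ligands differ. Both probes have 60 bases and lie in the same stretch of the coding sequence of the mature growth factor. Capitals mark the bases that are identical where the probes overlap without gaps, which are 28 of 41 bases, or 68.3%. In the mm9 build, which the file headers name, the Tgfb1 probe lies at chr7:26489877-26489936 on the plus strand and the Tgfb2 probe (A_65_P10913) at chr1:188449333-188449392 on the minus strand.
Tgfb1: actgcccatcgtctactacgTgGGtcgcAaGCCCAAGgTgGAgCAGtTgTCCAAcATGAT
Tgfb2: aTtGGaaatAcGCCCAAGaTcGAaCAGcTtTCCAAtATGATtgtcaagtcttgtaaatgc

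Across the time course the 3 TGF-beta ligands went in opposite directions. Tgfb1 rose, while Tgfb2 and Tgfb3 fell, Tgfb2 with calls at 24 h and 72 h and Tgfb3 with calls at all 3 times. Among all genes tested, 17.6% were called at 6 h against 0 h, 41.5% at 24 h and 52% at 72 h, so a call as such is common in these data. Of the 10 genes, 3 were called higher and 2 lower at 6 h (all genes: 10.3% higher and 7.24% lower), 4 and 4 at 24 h (21.4% and 20.1%), and 3 and 4 at 72 h (27.5% and 24.6%). The 4 lower at 24 h and at 72 h include Tgfbr2 by its brightest probe, although its probes disagreed and no direction is given for it below. When arrays were scaled to their median, 76.9%, 74.7% and 75.1% of all calls at 6 h, 24 h and 72 h were higher, against 58.8%, 51.5% and 52.7% here. The 3 higher calls at 6 h were 1, that of Tgfb1, without either of the 0 h arrays, without the second 6 h array or with no filter on background. The median difference of the 10 genes was 0, -0.18 and -0.1 at 6 h, 24 h and 72 h, beside 0, -0.02 and 0 over all genes. The levels on every array are plotted for each gene.

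**Figure D1:**
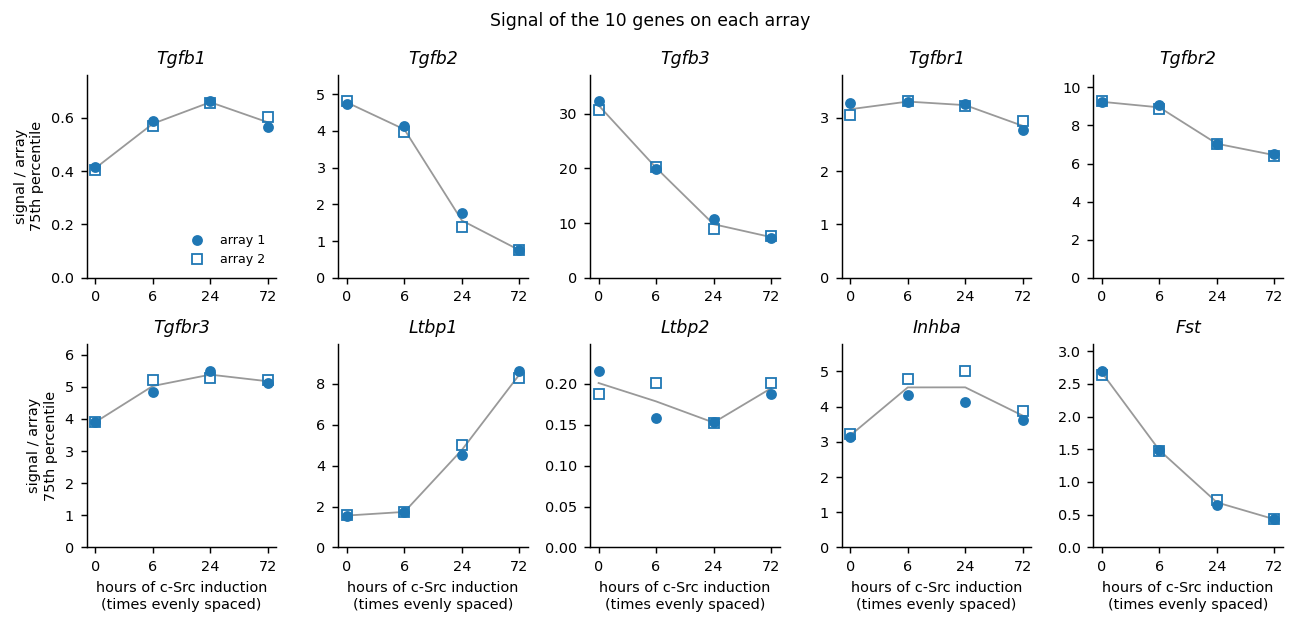
Level of each of the 10 genes on each of the 8 arrays, as processed signal over the 75th percentile of the array (vertical axis from 0, a scale of its own per gene), against hours of c-Src induction, with the times evenly spaced. Filled circles are array 1, open squares array 2, and the line joins the means of the log2 values. Tgfb2, Tgfb3 and Fst fall from 0 h to 72 h, Ltbp1 climbs from 1.54 and 1.58 to 8.64 and 8.27, and Tgfbr1 and Ltbp2 are called at no time.

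Tgfb1, the ligand made by most tissues, had levels of 0.416 and 0.405 at 0 h, 0.586 and 0.568 at 6 h, 0.662 and 0.653 at 24 h, and 0.565 and 0.601 at 72 h. Both arrays of each later time were above both 0 h arrays. The rise was 0.49 ± 0.05 (1.41-fold, adjusted p = 0.00394) at 6 h, 0.68 (1.6-fold, adjusted p = 0.000385) at 24 h and 0.51 (1.42-fold, adjusted p = 0.000589) at 72 h in the limma fit. The order of the means was 24 h, 72 h, 6 h, 0 h. The 6 h and 72 h arrays overlapped, and the step down from 24 h to 72 h, -0.17, was not called (adjusted p = 0.0576). The step up from 6 h to 24 h, 0.19, was called here (adjusted p = 0.0416) but in only 7 of 21 alternative settings, and in none that left out an array. The Tgfb1 probe is printed on 10 spots of each array, whose log2 values had an SD of 0.065 to 0.13 within an array.

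Tgfb2, a ligand known for its part in heart, eye and mesenchyme development, was measured by the probe shown above and by a brighter one at chr1:188447534-188447593, whose start lies 1799 bases away. The brighter probe gave levels of 4.73 and 4.81 at 0 h, 4.12 and 3.96 at 6 h, 1.77 and 1.37 at 24 h, and 0.76 and 0.744 at 72 h. Arrays of different times did not overlap, and each time lay below the one before it. The difference from 0 h was -0.24 ± 0.12 at 6 h, with no call (adjusted p = 0.216, and 0.0297 without either 24 h array), then -1.61 (3.06-fold lower, adjusted p = 0.000371) at 24 h and -2.67 (6.35-fold lower, adjusted p = 5.94e-05) at 72 h by limma. Both later steps passed the test on their own: the fall from 6 h to 24 h was -1.37 (adjusted p = 0.00162) and that from 24 h to 72 h was -1.05 (adjusted p = 0.00531).

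The second Tgfb2 probe also fell after 6 h. Its levels were 3.52 and 3.46 at 0 h, 3.3 and 3.44 at 6 h, 1.51 and 1.3 at 24 h, and 0.731 and 0.759 at 72 h. Its differences from 0 h were -0.05 ± 0.08 (adjusted p = 0.71) at 6 h, -1.32 (adjusted p = 0.000333) at 24 h and -2.23 (adjusted p = 5.81e-05) at 72 h, in a limma fit over all 28610 probes kept. Neither Tgfb2 probe was called at 6 h and both were called lower at 24 h and 72 h.

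Tgfb3, a ligand known for palate fusion and for mesenchymal cells, was measured by 1 probe on 10 spots at chr12:87397804-87397863. Its levels were 32.3 and 30.7 at 0 h, 19.9 and 20.3 at 6 h, 10.7 and 9 at 24 h, and 7.3 and 7.59 at 72 h. No array of one time overlapped those of another, and the order was 0 h, 6 h, 24 h, 72 h. The fall was 0.65 on the log2 scale at 6 h (difference -0.65 ± 0.09, 1.57-fold lower, adjusted p = 0.00804), and the differences were -1.69 (3.22-fold lower, adjusted p = 0.000168) at 24 h and -2.08 (4.24-fold lower, adjusted p = 5.58e-05) at 72 h in the limma fit. Most of the fall lay before 24 h. The step from 6 h to 24 h was -1.04 (adjusted p = 0.00158), whereas the step from 24 h to 72 h, -0.4 (adjusted p = 0.0286), was lost in 10 of 21 alternative settings, among them the fits without any one array other than the second 24 h array, and was -0.28 without the first 24 h array.

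Within an array, the level of Tgfb1 relative to that of Tgfb3 can be followed over time without any scaling between arrays. Set to 1 at the 0 h mean, the ratio Tgfb1 over Tgfb3 was 2.26 and 2.15 on the 6 h arrays, 4.77 and 5.57 on the 24 h arrays, and 5.95 and 6.08 on the 72 h arrays. Arrays of different times did not overlap in this ratio. It shows unequal change of the 2 probes and not the amounts of either ligand.

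**Figure D2:**
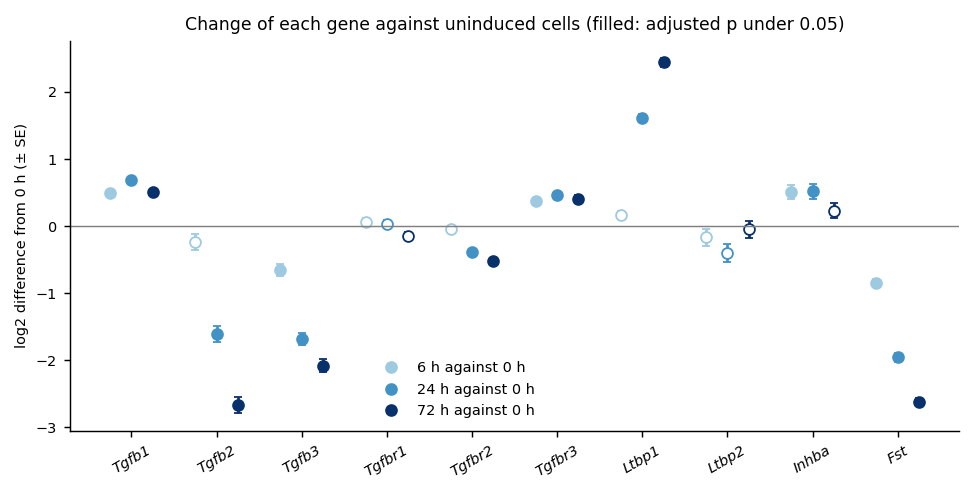
Difference of each of the 10 genes from 0 h on the log2 scale, with the standard error as bars (hidden by the point where smaller than it), at 6 h, 24 h and 72 h from light to dark. Filled points have an adjusted p under 0.05. Ltbp1 reaches 2.44 and Tgfb2, Fst and Tgfb3 reach -2.67, -2.63 and -2.08 at 72 h, while the other 6 genes stay between -0.52 and 0.68 at all times.

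Inhba and Fst, the activin arm, also went in opposite directions. Inhba encodes the beta A chain whose dimer is activin A, and Fst encodes follistatin, the secreted protein that binds activin and keeps it from its receptors. Inhba was higher at 6 h and 24 h and Fst was lower at all 3 times. The Inhba probe is shown because it lies in the coding sequence of the mature activin chain, at chr13:16118634-16118693 in mm9 on the plus strand.
Inhba: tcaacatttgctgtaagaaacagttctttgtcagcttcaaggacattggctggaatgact

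Inhba had levels of 3.13 and 3.23 at 0 h, 4.32 and 4.79 at 6 h, 4.12 and 5.02 at 24 h, and 3.62 and 3.87 at 72 h. All later arrays were above both 0 h arrays, and the 6 h and 24 h arrays overlapped. The difference was 0.51 ± 0.11 (1.43-fold, adjusted p = 0.0287) at 6 h and 0.52 (1.43-fold, adjusted p = 0.0126) at 24 h, and at 72 h it was 0.23 with no call (adjusted p = 0.12), by limma. The 6 h call was the least stable of the calls of the 10 genes against 0 h. It was missing in 7 of 21 alternative settings (largest adjusted p 0.136), among them those without any one array of 0 h, 6 h or 72 h, and the 24 h call only without the first 0 h array (adjusted p = 0.06). With arrays scaled to their median, Inhba was also called at 72 h, with a difference of 0.42 (adjusted p = 0.00832), and with the replicate number as a block it was called there too (adjusted p = 0.0411).

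Fst, measured at chr13:115243565-115243624, had levels of 2.7 and 2.64 at 0 h, 1.49 and 1.48 at 6 h, 0.652 and 0.726 at 24 h, and 0.432 and 0.43 at 72 h. Arrays of different times did not overlap, and each time lay below the one before. The difference from 0 h was -0.85 ± 0.06 (1.8-fold lower, adjusted p = 0.00138) at 6 h, -1.96 (3.88-fold lower, adjusted p = 5.3e-05) at 24 h and -2.63 (6.2-fold lower, adjusted p = 1.89e-05) at 72 h in the limma fit. Each step passed the test on its own. From 6 h to 24 h it was -1.11 (adjusted p = 0.000662) and from 24 h to 72 h -0.68 (adjusted p = 0.00347).

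The ratio of the Inhba level to the Fst level within an array, set to 1 at the 0 h mean, was 2.44 and 2.71 at 6 h, 5.3 and 5.8 at 24 h, and 7.03 and 7.57 at 72 h. Its mean was 2.58, 5.56 and 7.29 at these times. The ratio went on climbing after 6 h although Inhba itself did not: the step of Inhba from 6 h to 24 h was 0 (adjusted p = 0.995) and that from 24 h to 72 h was -0.28 (adjusted p = 0.121) by limma.

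**Figure D3:**
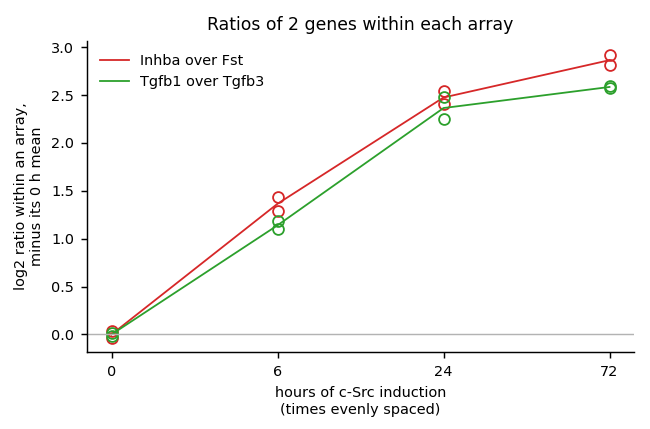
Log2 ratio of 2 genes within each array, minus its mean over the 0 h arrays, against hours of c-Src induction (times evenly spaced), for Inhba over Fst and Tgfb1 over Tgfb3. Points are arrays and lines join the means of each time. The mean ratios reach 7.29 for Inhba over Fst and 6 for Tgfb1 over Tgfb3 at 72 h, which is 2.87 and 2.58 on the log2 scale.

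The 4 receptor probes tested had differences from 0 h between -0.52 and 0.76 on the log2 scale. Tgfbr1, the type I receptor kinase, was not called in any comparison, though 3 of 21 alternative settings called it lower at 72 h. Tgfbr3, or betaglycan, the coreceptor that presents TGF-beta to the type II receptor and also binds inhibin, was higher at all 3 times. Tgfbr2, the type II receptor kinase, was lower at 24 h and 72 h by its brightest probe, but its other probe did not follow.

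Tgfbr1, read by a probe at chr4:47427736-47427795, had levels of 3.28 and 3.04 at 0 h, 3.29 and 3.31 at 6 h, 3.25 and 3.22 at 24 h, and 2.76 and 2.93 at 72 h. The 24 h arrays lay within the range of the 0 h arrays, and both 72 h arrays lay below it. Its differences from 0 h were 0.06 ± 0.06 (adjusted p = 0.475), 0.03 (adjusted p = 0.663) and -0.15 (adjusted p = 0.0695) in time order by limma. A second Tgfbr1 probe, 2790 bases away, was not well above background on 7 of 8 arrays and was the only one of the 13 probes left out of the test.

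Tgfbr3, at chr5:107535818-107535877, had levels of 3.9 and 3.89 at 0 h, 4.84 and 5.21 at 6 h, 5.5 and 5.26 at 24 h, and 5.12 and 5.22 at 72 h. All later arrays were above the 0 h arrays and the 3 later times were close to each other. The difference from 0 h was 0.37 ± 0.05 (1.29-fold, adjusted p = 0.0102) at 6 h, 0.46 (1.38-fold, adjusted p = 0.00157) at 24 h and 0.41 (1.33-fold, adjusted p = 0.00165) at 72 h by limma. The 6 h call was lost in 5 of 21 alternative settings, among them those without either 0 h array (adjusted p = 0.052 and 0.0542) or without the second 6 h array (adjusted p = 0.058). The steps between later times, 0.1 (adjusted p = 0.23) and -0.06 (adjusted p = 0.489), did not pass the test.

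For Tgfbr2 the brightest probe lies at chr9:115997155-115997214 and the dimmer one at chr9:115999496-115999555, both on the minus strand, so the brightest one starts 2341 bases further along in the direction of transcription. The dimmer probe is shown because its sequence ends at a stop codon that closes an open frame, which is in capitals.
Tgfbr2: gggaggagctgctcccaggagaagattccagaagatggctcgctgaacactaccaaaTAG

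The brightest Tgfbr2 probe had levels of 9.21 and 9.28 at 0 h, 9.05 and 8.84 at 6 h, 7.04 and 7.04 at 24 h, and 6.48 and 6.4 at 72 h. The 24 h and 72 h arrays lay below all earlier ones. Its difference from 0 h was -0.05 ± 0.04 (adjusted p = 0.466) at 6 h, -0.39 (1.31-fold lower, adjusted p = 0.00104) at 24 h and -0.52 (1.44-fold lower, adjusted p = 0.000254) at 72 h by limma. With arrays scaled to the median its 24 h difference was -0.24, with no call by limma (adjusted p = 0.0534). The dimmer probe, at the stop codon, had levels of 0.256 and 0.28 at 0 h, 0.227 and 0.274 at 6 h, 0.299 and 0.296 at 24 h, and 0.464 and 0.443 at 72 h. Here the 72 h arrays were the highest, above all others. In the fit over all probes its difference from 0 h was -0.1 ± 0.1 (adjusted p = 0.532) at 6 h, 0.15 (adjusted p = 0.282) at 24 h and 0.76 (1.69-fold higher, adjusted p = 0.00183) at 72 h by limma. At 72 h the probes of Tgfbr2 were therefore called in opposite directions. With the mean of both probes the gene had a difference of 0.12 (adjusted p = 0.133) at 72 h and -0.12 (adjusted p = 0.148) at 24 h, so no direction is given for Tgfbr2 as a gene.

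**Figure D4:**
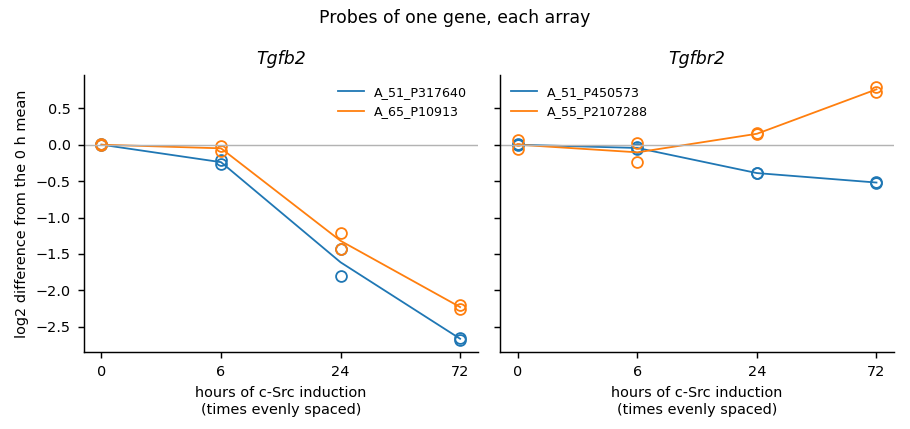
Log2 difference of each array from the 0 h mean of the same probe, for the 2 tested probes of Tgfb2 and of Tgfbr2, against hours of c-Src induction (times evenly spaced). Points are arrays and lines join the means of each time. Both Tgfb2 probes fall, to -2.67 and -2.23 at 72 h, while the Tgfbr2 probes part, at -0.52 and 0.76.

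Ltbp1 and Ltbp2 encode secreted proteins of the latent TGF-beta binding protein family. LTBP1 binds the latent TGF-beta complex and fixes it to fibrillin and fibronectin, whereas LTBP2 is a fibrillin-binding protein that does not bind latent TGF-beta. Ltbp1 was the gene with the largest rise among the 10, and Ltbp2 was not called at any time. The step of the Ltbp1 rise came after 6 h.

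Ltbp1, at chr17:75790530-75790589, had levels of 1.54 and 1.58 at 0 h, 1.74 and 1.73 at 6 h, 4.52 and 5.03 at 24 h, and 8.64 and 8.27 at 72 h. Arrays of different times did not overlap, and each time lay above the one before. The difference from 0 h was 0.16 ± 0.06 at 6 h, with no call (adjusted p = 0.153), 1.61 (3.06-fold higher, adjusted p = 9.79e-05) at 24 h and 2.44 (5.42-fold higher, adjusted p = 2.16e-05) at 72 h in the limma fit. Both later steps passed the test, with 1.46 (adjusted p = 0.000364) from 6 h to 24 h and 0.83 (adjusted p = 0.00267) from 24 h to 72 h. The ratio of Ltbp1 to Tgfb3 within an array, set to 1 at 0 h, was 1.77 and 1.73 at 6 h, 8.57 and 11.3 at 24 h, and 23.9 and 22 at 72 h.

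Ltbp2, at chr12:86124167-86124226, had levels of 0.216 and 0.187 at 0 h, 0.158 and 0.201 at 6 h, 0.153 and 0.152 at 24 h, and 0.188 and 0.201 at 72 h. Only the 24 h arrays lay apart from the 0 h arrays. The differences were -0.17 ± 0.13 (adjusted p = 0.414), -0.4 (adjusted p = 0.0545) and -0.05 (adjusted p = 0.783) in time order by limma. The 24 h difference was called in 5 of 21 alternative settings, among them those without either 6 h array (adjusted p = 0.0226).

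Between successive times, 2 of the 10 genes were called higher and 4 lower from 6 h to 24 h, where 26.2% of all genes were called (12.6% higher and 13.6% lower), and 1 higher and 3 lower from 24 h to 72 h, where 21.6% were called (10.8% and 10.9%). The 4 lower include Tgfbr2 by its brightest probe, while its other probe was at 0.25 (adjusted p = 0.124) for that step by limma. With arrays scaled to the median the brightest Tgfbr2 probe was at -0.25 for that step, with no call by limma (adjusted p = 0.0744). The 2 higher calls from 6 h to 24 h were Ltbp1 and Tgfb1, and without any one of the 8 arrays there was 1, that of Ltbp1. The 2 groups of arrays compared were apart for 9 of 10 genes at each time against 0 h, where all genes gave 62.7%, 69.8% and 78.1%. The genes with overlapping arrays were Ltbp2 at 6 h and 72 h and Tgfbr1 at 24 h. For the steps, 9 of 10 and 10 of 10 did not overlap, where all genes gave 65.1% and 64.9%, and the exception was Inhba from 6 h to 24 h. Over the whole time course, the means of Tgfb2 (by its brighter probe), Fst, Ltbp1 and Tgfb3 spanned 2.67, 2.63, 2.44 and 2.08 on the log2 scale, and the other 6 genes spanned 0.21 to 0.68.

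Promoters, from 250 bases before to 50 after a start of transcription, were taken from RefSeq (GRCm38.p6), whose table held 9 promoters for 7 of the 10 genes. Tgfb3, Tgfbr3 and Fst had none there and were not searched. The promoters searched were tested for the letters of 4 short motifs on both strands: the cyclic AMP response element TGACGTCA, the AP-1 site TGANTCA, the E-box CACGTG and the Smad box CAGAC. The first promoter of Ltbp1, at chr17:75005279-75005578 on the plus strand, and that of Tgfb2, at chr1:186705940-186706239 on the minus strand, are shown because these genes moved far and in opposite directions. Capitals mark the matches to the first 3 motifs.
Ltbp1: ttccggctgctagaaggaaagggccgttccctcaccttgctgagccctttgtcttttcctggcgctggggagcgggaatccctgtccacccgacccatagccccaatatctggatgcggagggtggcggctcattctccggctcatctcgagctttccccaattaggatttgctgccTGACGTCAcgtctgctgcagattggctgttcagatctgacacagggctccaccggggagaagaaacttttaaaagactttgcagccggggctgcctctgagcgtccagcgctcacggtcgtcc
Tgfb2: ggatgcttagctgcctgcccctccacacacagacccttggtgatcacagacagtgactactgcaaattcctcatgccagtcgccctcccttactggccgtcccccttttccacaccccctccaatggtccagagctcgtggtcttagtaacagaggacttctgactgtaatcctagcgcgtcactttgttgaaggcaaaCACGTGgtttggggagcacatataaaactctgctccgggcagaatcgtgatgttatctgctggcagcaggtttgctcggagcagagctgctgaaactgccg

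The first Ltbp1 promoter held the cyclic AMP response element at bases -73 to -66, counted from the start, and was the only 1 of the 9 promoters to do so, where 1.79% of the 32851 promoters in the table held it. The second Ltbp1 promoter, at chr17:75178531-75178830, did not hold it, and which start the Ltbp1 probe follows was not tested. The Tgfb2 promoter held the E-box at bases -51 to -46, again as the only 1 of 9, beside 7.15% of all promoters. No AP-1 letters were found in the 9 windows, beside 7.81% of all promoters, and the Smad box was in 6 of 9, beside 49.6%. These matches describe letters in a window and not binding.

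For the 4 genes that spanned at least 1 on the log2 scale, the 3 genes with the most similar course over the 8 arrays were found among 13027 other genes with a symbol, by the root mean square difference of mean-centred log2 values. For Tgfb2 they included Krt7 (0.14), a keratin, and Lratd2 (0.15). For Tgfb3 they were Cers4 (0.09), a ceramide synthase, Rasl11b (0.1) and Afap1l2 (0.11). Fst was nearest to Mtus1 (0.11), Dclk3 (0.17) and Nhsl2 (0.17). Ltbp1 was nearest to Car6 (0.16), a secreted carbonic anhydrase, Rasgef1a (0.17) and Sdc3 (0.21), a syndecan. Among these, Krt7 was at -0.45, -1.73 and -2.58 and Car6 at 0.15, 1.77 and 2.78 relative to 0 h, in time order, on the log2 scale.

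Other genes of the pathway were taken from lists by role. Of 10 other ligands 7 were tested, and 2 were called higher and 2 lower at 72 h against 0 h (all genes: 27.5% and 24.6%). The 2 lower calls were 0 with arrays scaled to the median and 1 after quantile normalization. Gdf15, a stress-induced distant member of the family, was higher by 1.55 ± 0.17 (2.93-fold, adjusted p = 0.000934) at 72 h, and Gdf11 by 0.77 ± 0.11 (1.7-fold, adjusted p = 0.00284) at 24 h in the limma fit. With normexp background correction and quantile normalization these were 0.61 and 0.48, still called. Inha, the inhibin alpha chain that pairs with the Inhba product to make an activin antagonist, was lower by limma, with -0.66 ± 0.11 (1.58-fold, adjusted p = 0.00605) at 24 h, and -0.31 with that correction. Inhbb, the other activin beta chain, was at -0.2 ± 0.06 (adjusted p = 0.036) at 72 h, a call lost in 8 of 21 settings, among them the fits without either 0 h array, either 24 h array or the first 72 h array (adjusted p up to 0.168), and at -0.02 with arrays scaled to the median.

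Of 9 other receptors and coreceptors 7 were tested. By limma, 1 was called higher and 1 lower at 6 h (all genes: 10.3% and 7.24%). The counts were 0 and 3 at 24 h (21.4% and 20.1%), and 1 and 3 at 72 h (27.5% and 24.6%). The 0 was also 0 at an unadjusted p under 0.05. These 7 receptors had a median difference of -0.12, -0.16 and -0.19 in time order, against 0, -0.02 and 0 over all genes. With arrays scaled to the median none was called lower at 24 h or 72 h, and after quantile normalization 4 and 3 were. These lower calls therefore depend on the scaling. Acvr1b, the type I receptor for activin, was at -0.46 ± 0.06 (1.38-fold lower, adjusted p = 0.00261) at 24 h, which median scaling ended (adjusted p = 0.0638), and Acvr1, a type I receptor of the family, at 0.36 ± 0.05 (1.29-fold higher, adjusted p = 0.00946) at 6 h, which leaving out the second 0 h or 6 h array ended (adjusted p = 0.0513 and 0.0562). At 72 h Acvr1 was at -0.19 (1.14-fold lower, adjusted p = 0.0271). Acvr2b, a type II activin receptor, was at -0.28 ± 0.05 at 6 h (adjusted p = 0.0171). Tdgf1, a coreceptor for Nodal, was at -0.32 ± 0.08 at 24 h (adjusted p = 0.0268), and Eng, the coreceptor endoglin, at 0.42 ± 0.14 at 72 h (adjusted p = 0.0472). These 3 calls were lost in 6, 7 and 9 of 21 settings, with adjusted p-values up to 0.107, 0.111 and 0.192. The arrays whose removal ended a call were the second 0 h array and both 6 h arrays for Acvr2b, the same and the first 24 h array for Tdgf1, and each array of 0 h, 6 h and 72 h for Eng.

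Of 22 other genes for the latent complex, its activation and the trapping of ligands, 19 were tested. The counts were 5 higher and 1 lower at 6 h, 3 and 4 at 24 h, and 4 and 10 at 72 h. Beside them, the shares of all genes were 10.3% and 7.24%, 21.4% and 20.1%, and 27.5% and 24.6%. Median differences of the 19 were 0.04, -0.06 and -0.18, against 0, -0.02 and 0 over all genes. The 4 lower calls at 24 h were 7 after quantile normalization and 3 with arrays scaled to the median, and the 10 lower calls at 72 h were 5 with that scaling. Thbs1, thrombospondin 1, which can activate latent TGF-beta, was higher by 0.72 ± 0.07 (1.64-fold, adjusted p = 0.00341) at 6 h and lower at 72 h, with -0.7 (1.62-fold, adjusted p = 0.000595), by limma. Lrrc32, the cell surface anchor for latent TGF-beta, was higher by 0.52 ± 0.06 (1.43-fold, adjusted p = 0.00105) at 72 h by limma. Fstl3, a relative of follistatin that also binds activin, was at -1.85 ± 0.14 (3.6-fold lower, adjusted p = 0.000225) at 72 h, and at -0.9 with normexp background correction and quantile normalization. Ltbp4 was at -1.18 ± 0.07 (2.27-fold lower, adjusted p = 0.00012) at 72 h by its brightest probe, with -1.08 and -0.19 by its other probes, where Ltbp1 had risen. Itgb3, an integrin chain, was higher at 6 h by 0.48 ± 0.07 (adjusted p = 0.00856, or 0.0562 without the second 6 h array) and at -0.94 ± 0.07 (1.92-fold lower, adjusted p = 0.000188) at 72 h.

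All 5 Smad transducers were tested, with 1, 1 and 2 called higher and 0 lower at 6 h, 24 h and 72 h by limma, and 0 lower at an unadjusted p under 0.05 as well. Of all genes, 10.3%, 21.4% and 27.5% were called higher and 7.24%, 20.1% and 24.6% lower at these times. The 1 higher call at 24 h was 3 with arrays scaled to the median. The median difference of the 5 transducers was 0.17, 0.21 and 0.23, against 0, -0.02 and 0 over all genes. Smad3, which carries the signal to DNA, was higher by 0.65 ± 0.09 (1.57-fold, adjusted p = 0.00804) at 6 h, and by 0.63 (adjusted p = 0.054) without the second 6 h array. After 6 h Smad3 fell, with steps of -0.4 (adjusted p = 0.0236) to 24 h and -0.41 (adjusted p = 0.0276) to 72 h by limma. Against 0 h, Smad3 was at -0.16 at 72 h, with no call (adjusted p = 0.187). At 72 h Zfyve16, an endosomal adaptor, was higher by 0.43 ± 0.05 (1.34-fold, adjusted p = 0.00121) and Smad4, the shared partner, by 0.23 ± 0.04 (1.17-fold, adjusted p = 0.00729), or 0.41 with arrays scaled to the median.

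All 12 inhibitors of Smad signalling were tested, and by their brightest probes 7 were called higher and 5 lower at 72 h, after 3 and 1 at 6 h and 7 and 3 at 24 h. Among all genes the shares were 27.5% and 24.6% at 72 h, after 10.3% and 7.24% at 6 h and 21.4% and 20.1% at 24 h. The 5 lower calls at 72 h were 2 with arrays scaled to the median. Smurf1, a ubiquitin ligase for Smads and receptors, was higher by 1.73 ± 0.09 (3.32-fold, adjusted p = 7.36e-05) and Tgif1, a Smad corepressor, by 0.85 ± 0.07 (1.8-fold, adjusted p = 0.000375) at 72 h by limma. Smad6, an inhibitory Smad, was at -1.44 ± 0.07 (2.71-fold lower, adjusted p = 6.03e-05) and Pmepa1, which keeps Smads from the receptor, at -0.89 ± 0.05 (1.85-fold lower, adjusted p = 1e-04). Tgif2 was at -0.55 ± 0.13 (adjusted p = 0.0142) by its brightest probe and at -0.11 by its other one. The call of its brightest probe was lost in 4 of 21 settings by limma. Median scaling ended it (-0.37, adjusted p = 0.0839), as did normexp background correction with quantile normalization (-0.21, adjusted p = 0.0978). So did leaving out the first 0 h array (-0.42) or the second 72 h array (-0.45). For Nedd4l, another ubiquitin ligase, the probes disagreed, with 0.85 ± 0.11 (adjusted p = 0.00178) and -0.8 ± 0.08 (adjusted p = 0.000673). The mean of its probes was at 0.02 (adjusted p = 0.857), so no direction is given for it, although it is among the 7.

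The list of 20 TGF-beta target genes was tested in full. At 6 h 11 were called higher and 0 lower by limma (2 lower at an unadjusted p under 0.05, and 1 lower after quantile normalization), at 24 h 10 higher and 6 lower (3 lower with arrays scaled to the median), and at 72 h 10 higher and 7 lower, with median differences of 0.45, 0.3 and 0.25. For all genes the shares were 10.3% higher and 7.24% lower at 6 h, 21.4% and 20.1% at 24 h, and 27.5% and 24.6% at 72 h. The medians over all genes were 0, -0.02 and 0. Fn1 and Itgb5 are also on the list for the latent complex, and Fn1, at -0.29 at 72 h, is counted as lower in both lists. At 72 h Ankrd1, a cardiac and fibroblast ankyrin repeat protein, was higher by 3.49 ± 0.08 (11.3-fold, adjusted p = 1.89e-05) and Tgfb1i1, a focal adhesion adaptor, by 1.88 ± 0.08 (3.69-fold, adjusted p = 5.55e-05). Lower at 72 h were Cnn1, the smooth muscle calponin, at -3.16 ± 0.12 (8.94-fold, adjusted p = 4.66e-05, and -1.81 with normexp background correction and quantile normalization), Lox, the collagen cross-linking enzyme, at -1.82 ± 0.05 (3.53-fold, adjusted p = 2.2e-05), and Tgfbi, a matrix protein, at -1.05 ± 0.07 (2.07-fold, adjusted p = 2e-04). The targets thus moved both ways at the later times, and many of them are also known to answer to other pathways.

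**Figure D5:**
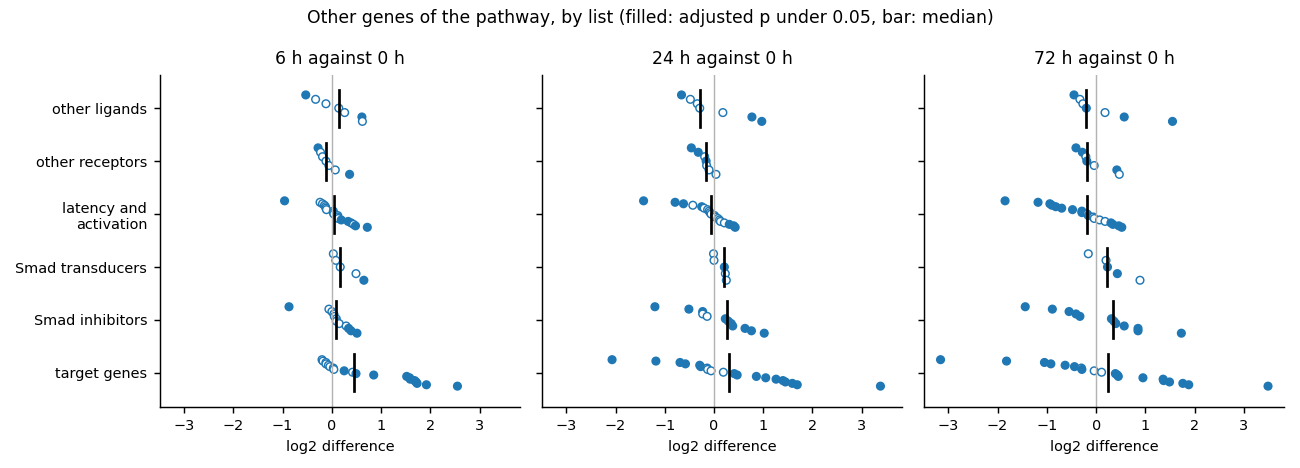
Difference from 0 h on the log2 scale (horizontal axis) of each tested gene of 6 lists of the pathway, at 6 h, 24 h and 72 h. Each point is a gene, filled where its adjusted p was under 0.05, points within a list are stacked by value, and the black bar is the median of the list. The target genes lie furthest to the right at 6 h, with a median of 0.45, and spread to both sides at 72 h, from -3.16 to 3.49.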

How the data were processed

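Total RNA from 8 samples was labelled with Cy3 and hybridised to a 1-colour Agilent mouse array. The deposited scanner files give the processed signal of each spot, an intensity on a linear scale from which background was subtracted, per the file headers. The file headers name Feature Extraction 10.5.1.1 and the mm9 build, and the submitters' processing notes name version 10.7.3.1. All arrays lay on a single slide, scanned once, replicate 1 and 2 in its columns and times in its rows. The authors' deposited series values held the same intensity within 0.497%. Of 59305 spots that are not controls, 49.9% to 54.7% were well above background on an array, which limits the precision for dim genes, and none was saturated.

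Outlier spots (146 to 208 an array) were left out. The log2 of the processed signal minus the 75th percentile of the array (370.3 to 393 in signal) was averaged over the spots of a probe. Probes well above background on both arrays of at least 1 time were kept, 28610 of 55681, and the brightest stood for its gene. RefSeq accessions named 26582 probes, symbols 2602 and synonyms 492, and 26005 kept the name in the file. The 4 time means were fitted to the 8 arrays with limma 3.58.1 in R 4.3.3 (4 residual degrees of freedom, prior 1.7), and differences had a median standard error of 0.0754. The fit was also run on simulated data with independent noise for each gene. Such data cannot test the scaling or whether the spread between replicates is technical. Alternatives covered scaling, background correction, filters, probe choice, spread, the replicate block and leaving out each array. Probes and promoters were read from the scanner files and from RefSeq (GRCm38.p6), and no annotation of exons or UTRs in mm9 was used. Files were read with version 1.17.8 of data.table, and matplotlib 3.10.9 with pandas 2.3.3 (Python 3.11.15) drew the figures.

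The 10 genes, the lists and the tests were chosen with earlier results of these data known. Text on other genes covers Src, Csk, for each list up to 3 called genes with the largest rise and up to 3 with the largest fall against 0 h, and the 3 genes nearest in course to each of the 10 that spans at least 1 on the log2 scale. Some genes that this rule selects are not reported here.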

Additional observations from a re-analysis of the deposited data

How the results depend on the processing

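Against 0 h, the calls of Tgfb1, Tgfb3 and Fst at 6 h, 24 h and 72 h, of Tgfb2 and Ltbp1 at 24 h and 72 h, and of Tgfbr3 at 24 h and 72 h held in all 21 alternative settings. The mean of a gene's probes turned Tgfbr2, to 0.12 (adjusted p = 0.133) at 72 h against 0 h and 0.24 (adjusted p = 0.0368) at 72 h against 24 h, because its probes differ in sign. The number of the 10 genes called higher at 6 h against 0 h, 3, was 1 with no filter on background. The number called higher at 24 h against 6 h, 2, was 1 with median scaling, with no filter on background, with eBayes with trend and robust estimation, with each probe fitted on its own, with only the 2 times compared and with the replicate block. The number called higher at 72 h against 24 h, 1, was 2 with the mean of a gene's probes, and the number called lower, 3, was 6 with eBayes with trend and robust estimation; the cause was not tested. When each array was left out in turn, the number higher was 1 to 3 at 6 h, 3 to 4 at 24 h and 3 to 4 at 72 h against 0 h, 1 at 24 h against 6 h and 1 at 72 h against 24 h. The number lower was 2 to 3, 4 to 5 and 4 against 0 h, 4 at 24 h against 6 h and 2 to 3 at 72 h against 24 h. Median scaling moved the median of all genes to 0.06, 0.13 and 0.18 at 6 h, 24 h and 72 h against 0 h. Same-numbered arrays of different times correlated in their deviations from the time means with r of 0.06 to 0.17, all positive. The number is also the column on the slide, so pairing and column cannot be told apart. The main fit does not pair the samples by number. The replicate block changed the count named above and the call of Inhba at 72 h, and no other call of the 10 genes against 0 h. With it, limma also called Inhba lower at 72 h against 24 h, at -0.28 (adjusted p = 0.0482).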
